A study of Rattus norvegicus with 6 samples.

Results

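The aminoacyl-tRNA synthetases are the enzymes that attach each amino acid to its transfer RNA (tRNA). The genes described are 36 members of this family, 20 for enzymes that act in the cytosol and 16 for enzymes of the mitochondrion, found by gene symbol, with no measured value in the rule. All 36 were found among the 37209 gene symbols of the count table, where the cytosolic genes carry the older symbols without the suffix 1. RNA was sequenced from primary wild-type mesenchymal stem cells (BMSCs) that came from the marrow of rat femurs. These are stromal progenitors of bone, cartilage and fat cells. The cells of 3 libraries received 3% cigarette smoke extract (CSE) for 6 h, and those of 3 control libraries were kept in serum-free medium for the same 6 h. The medium that carried the extract is not stated in the labels. Neither is the origin of replicate libraries (separate animals, separate cultures or one culture), and the p-values therefore cover the variation among these 6 libraries, which may be technical.

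Proteins are made in both the cytosol and the mitochondrion, and nearly every amino acid has its own synthetase in each. In animals the mitochondrial enzymes are encoded in the nucleus and imported, and they serve the few membrane proteins of the respiratory chain that the mitochondrial genome encodes. A few genes break the simple scheme: Gars and Kars each give both a cytosolic and a mitochondrial enzyme, Eprs joins the glutamate and proline enzymes in one chain, and Farsa and Farsb encode the subunits of a single enzyme. When charged tRNA runs short, uncharged tRNA activates the kinase GCN2, which phosphorylates the initiation factor eIF2, and translation of the transcription factor ATF4 rises. Many cytosolic synthetase genes are known targets of ATF4 in mouse and human cells.

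The libraries held between 15958621 and 22589327 counts, and the 3 CSE libraries were the larger ones. Hmox1, the haem oxygenase gene that oxidants induce, served as a check on the exposure. It had 9696, 8983 and 9365 CPM in the CSE libraries, against 128, 116 and 113 CPM in the control libraries. All 7 stromal markers had counts, with between 1.02 (Lepr) and 28796 CPM (Col1a1) in the control, Lepr and Nt5e being under 10 CPM in every library. With CSE, 2 of the 7 were higher, 3 lower and 2 did not pass. Cd44 rose (log2 fold change 1.09 ± 0.05), Pdgfrb (−0.87 ± 0.05) and Nt5e (−0.90 ± 0.17) fell, and their part in the results below was not tested. The endothelial markers Pecam1, Cdh5 and Kdr were each below 1 CPM in every library, and the lymphocyte markers Cd79a and Cd3e were listed at 0. Markers of myeloid blood cells were present. The summed level of 8 blood cell markers was 274 ± 7.92 with CSE and 337 ± 4.69 in the control (CPM, SD, n = 3 each). They did not move alike. Cd14 (log2 fold change −1.45 ± 0.08), Ptprc (−0.33 ± 0.06) and Csf1r (−0.25 ± 0.05) were lower, and Cd68 (0.14 ± 0.06) was higher. Itgam and Cd34 did not pass, and Cd79a and Cd3e were not tested. Of all tested genes, 36.3% were higher and 37.5% lower. Levels below are in CPM, the count of a gene per 1000000 counts of the TMM-scaled library size. Fold changes are log2 values of CSE over control ± SE, and the test is edgeR's quasi-likelihood test with Benjamini-Hochberg adjustment over all 13390 genes tested, at a threshold of 0.05. In bulk RNA, a change in the number of cells of a type and a change in RNA per cell cannot be told apart.

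Most cytosolic synthetase genes rose with CSE, and most mitochondrial ones fell. Of the 20 cytosolic genes, 14 were higher with CSE, 5 were lower and 1 did not pass. Their median log2 fold change was 0.35. Of the 16 mitochondrial genes 15 could be tested, and 11 were lower, 0 were higher and 4 did not pass. Their median was −0.65. The count of 0 higher mitochondrial genes was the same at an unadjusted p under 0.05 in edgeR, and with DESeq2 and limma-voom. Most genes differed between the groups, so these counts have to be read against that background: 73.9% of all tested genes passed, 36.3% higher and 37.5% lower, with a median of −0.02. When libraries were scaled by total counts alone, the split over all genes was 3749 higher and 6319 lower, in place of 4867 and 5027. The share of higher cytosolic genes was 70.0%, and that of lower mitochondrial genes 73.3%. The direction of change also varied with abundance across the whole table. Among the 3953 genes whose mean CPM lay within the range of the cytosolic synthetases, 56.1% were higher and 28.3% lower, with a median of 0.21. Among the 6810 genes within the range of the mitochondrial synthetases, 29.6% were higher and 45.5% lower, with a median of −0.15.

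**Figure D1:**
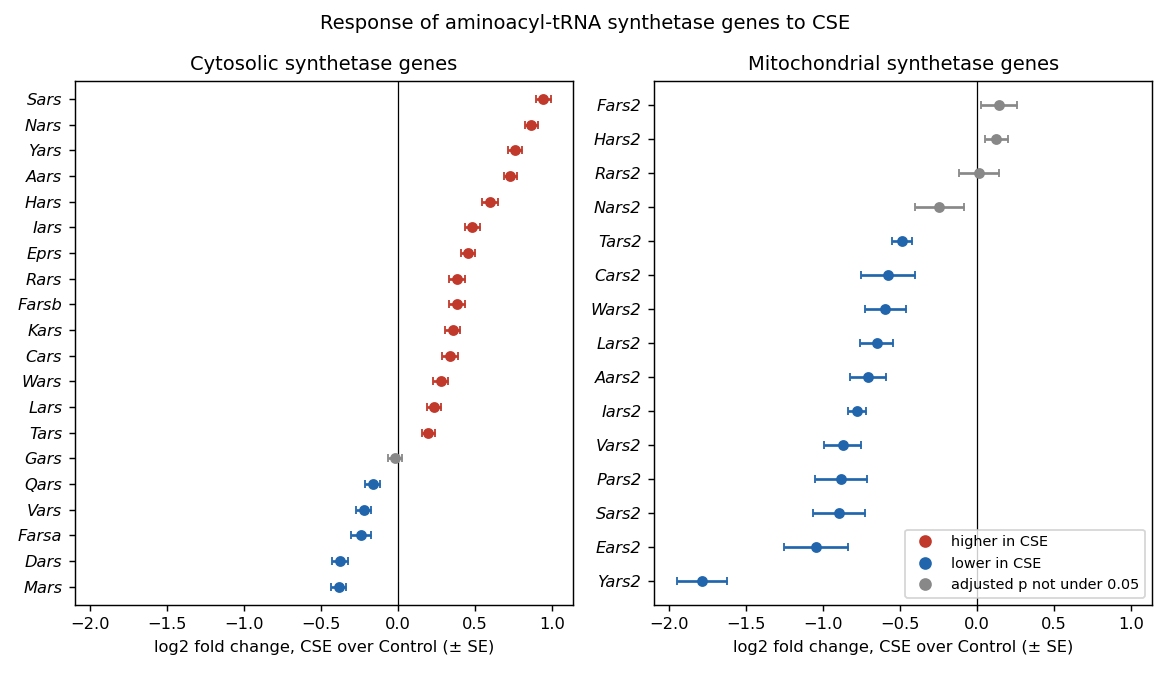
Log2 fold change of CSE over control for each tested synthetase gene, with bars of ± 1 SE, cytosolic enzymes on the left and mitochondrial enzymes on the right, each ordered by size of the change. Red points passed the test as higher, blue points as lower, and grey points did not pass. The cytosolic genes run from −0.39 (Mars) to 0.94 (Sars), and the mitochondrial genes from −1.79 (Yars2) to 0.14 (Fars2).

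Among the cytosolic genes, the enzymes for serine, asparagine, tyrosine and alanine rose most, each by over 1.5-fold. Sars, the seryl-tRNA synthetase gene, had 477, 461 and 482 CPM in the CSE libraries, against 238, 242 and 258 CPM in the control libraries. Its 1.93-fold rise gave a log2 fold change of 0.94 ± 0.05 (SE, edgeR adjusted p = 5.6e-12). Nars, which charges tRNA with asparagine, had 728, 719.5 and 733 CPM in the CSE libraries, against 398, 394 and 404 CPM in the control libraries. For both genes every CSE library lay far above every control library, and the log2 fold change of Nars was 0.87 ± 0.04 (SE, edgeR adjusted p = 3.7e-12). The tyrosine enzyme gene Yars had 256, 242 and 248 CPM in the CSE libraries, against 145, 144 and 152 CPM in the control libraries, a log2 fold change of 0.76 ± 0.05 (SE, edgeR adjusted p = 1.4e-10). Aars, for alanine, had 569, 561 and 583 CPM in the CSE libraries, against 345, 336 and 352 CPM in the control libraries, a log2 fold change of 0.73 ± 0.04 (SE, edgeR adjusted p = 6.4e-11). The groups did not overlap for either gene, and the spread within a group was small beside the gap.

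The histidine, isoleucine and fused glutamate-proline enzymes followed. Hars had 147, 147 and 156 CPM in the CSE libraries, against 101, 92.8 and 103 CPM in the control libraries, and rose 1.51-fold. Iars had 138, 148 and 147 CPM in the CSE libraries, against 103, 101 and 106 CPM in the control libraries, and rose 1.4-fold. Eprs had 873, 897 and 892 CPM in the CSE libraries, against 679.9, 619 and 641 CPM in the control libraries, and rose 1.37-fold. None of these 3 genes had a control library within the range of its CSE libraries, and their edgeR adjusted p lay between 1.6e-08 (Hars) and 9.9e-08 (Iars). The other 7 cytosolic genes that rose did so by log2 fold changes between 0.20 and 0.39. They were Rars, Farsb, Kars, Cars, Wars, Lars and Tars, the enzymes or subunits for arginine, phenylalanine, lysine, cysteine, tryptophan, leucine and threonine. The calls of Lars and Tars did not hold when libraries were scaled by upper quartiles (edgeR adjusted p = 0.0623 and 0.216) or by total counts alone (edgeR adjusted p = 0.374 and 0.852), and that of Wars did not hold under total counts alone (edgeR adjusted p = 0.108).

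The enzymes for methionine, aspartate, valine and glutamine and a phenylalanine enzyme subunit fell. Mars, the methionyl-tRNA synthetase gene, had 124, 124 and 120.0 CPM in the CSE libraries, against 159, 158 and 163 CPM in the control libraries, a log2 fold change of −0.39 ± 0.05 (SE, edgeR adjusted p = 7.8e-07). Dars, for aspartate, had 75.5, 82.1 and 77.6 CPM in the CSE libraries, against 102, 99.6 and 103 CPM in the control libraries, a log2 fold change of −0.38 ± 0.05 (SE, edgeR adjusted p = 4.4e-06). All CSE libraries were below all control libraries for both genes. In the RefSeq annotation of the rat assembly GRCr8, Mars overlaps a gene that rose (Ddit3, described at the end). Smaller falls were seen in Farsa, the catalytic subunit of the phenylalanine enzyme, which had 44.1, 42.3 and 39.0 CPM in the CSE libraries, against 52.4, 48.7 and 47.5 CPM in the control libraries. Vars, for valine, had 135, 129 and 127 CPM in the CSE libraries, against 152, 150.2 and 154 CPM in the control libraries. Qars, for glutamine, had 111, 118 and 112 CPM in the CSE libraries, against 129.6, 122 and 131 CPM in the control libraries. Again the groups did not overlap, with log2 fold changes of −0.24 ± 0.07 for Farsa, −0.22 ± 0.05 for Vars and −0.17 ± 0.05 for Qars (edgeR adjusted p = 0.0028, 4.1e-04 and 0.0073). The subunits of the phenylalanine enzyme thus differed in direction, since Farsb had 112, 111 and 115 CPM in the CSE libraries, against 91.3, 82.1 and 86.2 CPM in the control libraries, a log2 fold change of 0.38 ± 0.05 (SE, edgeR adjusted p = 4.0e-06). Gars, for glycine, was the cytosolic gene that did not pass. It had 385, 355 and 364 CPM in the CSE libraries, against 374, 378 and 367 CPM in the control libraries, and its groups overlapped, with a 95% interval of the log2 fold change from −0.11 to 0.07. Gars was called lower with upper-quartile factors (−0.16, edgeR adjusted p = 0.0042) and with total counts alone (−0.21, edgeR adjusted p = 3.6e-04).

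**Figure D2:**
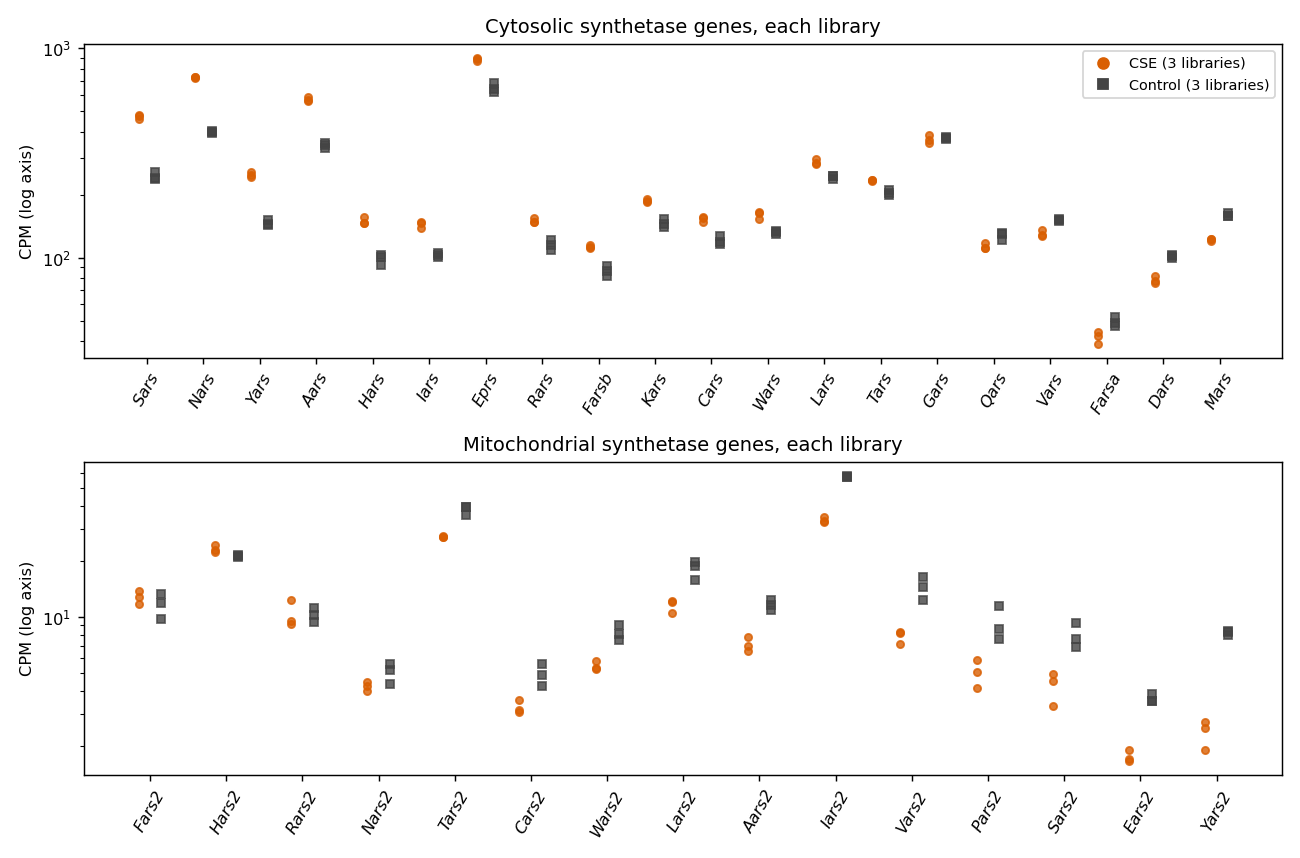
Level of each tested synthetase gene in every library, in CPM on a log axis, with cytosolic enzymes above and mitochondrial enzymes below, ordered from the highest to the lowest log2 fold change. Orange circles are CSE libraries and dark squares control libraries. Only Gars overlaps between groups in the upper panel, and Fars2, Rars2 and Nars2 in the lower. Of all tested genes, 37.2% had every CSE library above every control library and 38.6% every CSE library below.

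Rises and falls were found both inside and outside the complex that holds some of these enzymes, and in both catalytic classes. In animal cells 8 of the cytosolic genes encode enzymes of the multisynthetase complex, a particle that holds several synthetases on scaffold proteins. Of these 8, 5 rose and 3 fell (Dars, Mars and Qars), with a median of 0.29. Of the 12 outside the complex, 9 rose, 2 fell (Farsa and Vars) and 1 did not pass, and the median was 0.36. Synthetases fall into class I and class II by the fold of their catalytic domain. The medians were 0.28 for 9 cytosolic class I genes, of which 6 rose and 3 fell, and 0.37 for 10 of class II, of which 7 rose and 2 fell, with Eprs, which holds a domain of each class, left out. Among mitochondrial genes, 7 of 8 tested class I genes fell (median −0.72) and 4 of 7 class II genes (median −0.49). Over all tested genes, 36.3% were higher and 37.5% lower. At the CPM of the cytosolic synthetases the shares were 56.1% and 28.3%, and at that of the mitochondrial ones 29.6% and 45.5%. Differences between these subgroups, or from those shares, were not tested.

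A list of 12 cytosolic genes that work in mouse cells has reported as ATF4 targets, drawn from general knowledge, had 10 higher, 1 lower (Mars) and 1 that did not pass (Gars), with a median of 0.40. The other 8 cytosolic genes were divided evenly, with 4 higher (Farsb, Hars, Kars and Rars), 4 lower (Dars, Farsa, Qars and Vars) and a median of 0.09. Of all tested genes, 36.3% were higher and 37.5% lower, and of those at the CPM of the cytosolic synthetases 56.1% and 28.3%. The difference between these lists was not tested.

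Some of the cytosolic genes have a sequence motif in common near their starts. RefSeq promoters of the rat assembly GRCr8, from 250 bases before to 50 after each start, were matched for 33 of 36 members, all but Dars, Gars and Rars. They were searched on both strands for TGATGNAA, the core of the C/EBP-ATF response element (CARE), to which ATF4 binds with a C/EBP partner. The letters were found in 7 of 17 cytosolic promoters (41.2%) and in 0 of 16 mitochondrial promoters. By comparison, they stood in 3.82% of all 27457 promoters of the table and in 1.95% of the 9689 that belong to genes tested here. With the window cut to the 250 bases before the start, the counts were 5 of 17 and 0 of 16. A match describes the letters only and is no evidence of binding. The stretches around these matches are shown because they let the shared letters be compared, with the match in capitals, 5′ to 3′ on the strand of the gene.
Nars: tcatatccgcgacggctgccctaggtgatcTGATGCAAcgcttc
Aars: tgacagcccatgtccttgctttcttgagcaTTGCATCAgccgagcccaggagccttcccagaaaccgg
Iars: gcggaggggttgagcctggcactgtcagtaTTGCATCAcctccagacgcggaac
Tars: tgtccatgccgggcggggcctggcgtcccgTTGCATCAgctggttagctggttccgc
Mars: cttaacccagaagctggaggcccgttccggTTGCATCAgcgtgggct
Yars: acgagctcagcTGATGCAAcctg
Cars: cggcgccgcggTTGCATCAgattctggaaa
The stretches lie in GRCr8 at chr18:60275783-60275826 (minus strand), chr19:55908340-55908407 (plus), chr17:15193653-15193706 (minus), chr2:62114803-62114859 (minus), chr7:65023754-65023800 (minus), chr5:146820190-146820212 (plus) and chr1:208225334-208225363 (minus), in the order shown. The first 5 are upstream of the start and the last 2 just after it. All 7 hold the same 8 bases, TGATGCAA, read directly in Nars and Yars and as the reverse complement TTGCATCA in the others. In Nars, Mars, Iars and Tars the match begins 14, 17, 24 and 27 bases before the start, in Aars 112 bases before it, and in Cars and Yars at bases 18 and 39 after it. Aars has a further match, TTTCATCA, at base 10 after the start.

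Of the 7 genes with the letters, 6 rose and Mars fell, with a median log2 fold change of 0.48. Of the 10 other cytosolic genes with a promoter, 7 rose and 3 fell, with a median of 0.32, and Sars, the gene that rose most, was among them. All 7 genes with the letters are also on the list of 12 reported ATF4 targets, so this split is not separate from that one. Of all tested genes at the CPM of the cytosolic synthetases, 56.1% were higher and 28.3% lower. The difference between cytosolic genes with and without the letters was not tested. The E-box CACGTG, a site of MYC family factors, was in 5 of 17 cytosolic promoters (Aars, Farsb, Iars, Tars and Vars), 1 of 16 mitochondrial promoters (Ears2) and 9.47% of promoters of tested genes. TGACNNNGC, the core of the antioxidant response element bound by NRF2, was in 4 of 17 (Aars, Iars, Nars and Vars) and 3 of 16 (Aars2, Fars2 and Mars2), against 14.8% of promoters of tested genes. In Aars the E-box overlaps a match to that element.

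Among the mitochondrial genes, Yars2, which charges the mitochondrial tRNA for tyrosine, fell most. It had 2.7, 2.51 and 1.91 CPM in the CSE libraries, against 8.01, 8.28 and 8.43 CPM in the control libraries. Its log2 fold change was −1.79 ± 0.16 (SE, edgeR adjusted p = 2.2e-08), so that its level was 3.46 times as high in the control. Ears2, the mitochondrial glutamate enzyme gene, had 1.66, 1.91 and 1.71 CPM in the CSE libraries, against 3.53, 3.53 and 3.83 CPM in the control libraries, a log2 fold change of −1.05 ± 0.21 (SE, edgeR adjusted p = 1.9e-04). These were the members that changed by at least 2-fold, and in both the highest CSE library was well below the lowest control library. Their levels rest on few reads, with between 37 and 57 counts in a CSE library for Yars2 and between 33 and 35 for Ears2.

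The serine, proline and valine enzymes of the mitochondrion came next. Sars2 had 4.51, 4.91 and 3.31 CPM in the CSE libraries, against 9.25, 6.91 and 7.62 CPM in the control libraries. Pars2 had 5.03, 5.84 and 4.13 CPM in the CSE libraries, against 8.6, 7.59 and 11.5 CPM in the control libraries. Vars2 had 8.25, 8.18 and 7.18 CPM in the CSE libraries, against 16.4, 12.4 and 14.6 CPM in the control libraries. All 3 fell without overlap between groups, by log2 fold changes of −0.90 ± 0.17 for Sars2, −0.89 ± 0.17 for Pars2 and −0.87 ± 0.12 for Vars2 (edgeR adjusted p = 1.1e-04, 1.4e-04 and 4.1e-06). Pars2 was uneven within the control, where replicate 3 stood above the others.

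Iars2, for isoleucine, was measured with the smallest error of the mitochondrial genes. It had 34.9, 32.6 and 33.0 CPM in the CSE libraries, against 57.5, 57.1 and 58.0 CPM in the control libraries, a log2 fold change of −0.78 ± 0.06 (SE, edgeR adjusted p = 1.8e-09). Aars2, for alanine, had 6.97, 7.8 and 6.56 CPM in the CSE libraries, against 12.3, 11.6 and 10.9 CPM in the control libraries, a log2 fold change of −0.71 ± 0.12 (SE, edgeR adjusted p = 3.2e-05). Lars2, for leucine, had 12.2, 10.5 and 12.0 CPM in the CSE libraries, against 18.9, 15.9 and 19.9 CPM in the control libraries, a log2 fold change of −0.65 ± 0.11 (SE, edgeR adjusted p = 2.6e-05). In each the CSE libraries were below the control libraries. The remaining falls were those of Wars2, Cars2 and Tars2, for tryptophan, cysteine and threonine, by log2 fold changes between −0.60 and −0.49.

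The 4 mitochondrial genes that did not pass were Fars2, Hars2, Rars2 and Nars2. Hars2, for histidine, had 23.2, 24.6 and 22.4 CPM in the CSE libraries, against 21.5, 21.2 and 21.6 CPM in the control libraries. Its groups did not overlap, but its log2 fold change, 0.12 ± 0.07, missed the threshold (edgeR adjusted p = 0.142). RefSeq places Hars2 beside Hars in GRCr8 on the opposite strand, and Hars rose while the 95% interval of Hars2 ran from −0.02 to 0.27. Fars2, for phenylalanine, and Rars2, for arginine, overlapped between groups, with log2 fold changes of 0.14 ± 0.12 and 0.01 ± 0.13. Nars2, for asparagine, was at −0.25 ± 0.16 (edgeR adjusted p = 0.179), and it was called lower with upper-quartile factors (−0.38, edgeR adjusted p = 0.0415) and with total counts alone (−0.43, edgeR adjusted p = 0.0218). The signs of Hars2 and Rars2 turned with both scalings and that of Fars2 with total counts alone. Mars2, for methionine, had 0, 2 and 3 counts in the CSE libraries and 0, 2 and 0 in the control libraries, all within the 3 counts that a count of 0 allows, and was not tested.

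Both classes were measured in the same libraries, so that a library's scaling factor drops out of their ratio apart from the pseudocount. The mean log2(CPM + 0.5) of the 20 cytosolic genes minus that of the 15 tested mitochondrial genes was 4.61, 4.60 and 4.69 in the CSE libraries, against 3.74, 3.85 and 3.75 in the control libraries. All CSE libraries were above all control libraries, and the means differed by 0.85. Genes at the CPM of the cytosolic and mitochondrial members had median log2 fold changes of 0.21 and −0.15, as given above. How far that enters the difference of 0.85 was not tested. In summed levels, the cytosolic genes took up 5340.4 ± 18.7 CPM with CSE and 3998 ± 76.2 CPM in the control, a ratio of 1.34. The mitochondrial genes took up 160.2 ± 2.96 CPM with CSE and 231 ± 9.53 CPM in the control (SD, n = 3 each), a ratio of 0.695. The summed blood cell markers moved as well, as given above, and their part in these differences was not tested.

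The same contrast was then drawn amino acid by amino acid, as the log2 ratio of the cytosolic to the mitochondrial gene within each library. There were 16 such pairs, in which Eprs served for both glutamate and proline and Fars2 was set against each subunit of the cytosolic phenylalanine enzyme. In 14 of 16 pairs the ratio was higher in every CSE library than in every control library. For single genes, the share with every CSE library above every control library was 37.2% over the whole table, and genes at the CPM of the cytosolic and mitochondrial members had medians of 0.21 and −0.15, as given above. How far this difference by abundance enters the pair ratios was not tested. Tyrosine shifted most: the log2 ratio of Yars to Yars2 was 6.32, 6.33 and 6.69 in the CSE libraries, against 4.10, 4.04 and 4.09 in the control libraries, a difference of 2.37. For serine the difference was 1.78, for alanine 1.40, for glutamate 1.33, for proline 1.27, for isoleucine 1.25 and for asparagine 1.08. Leucine, cysteine, tryptophan, threonine, valine, histidine and arginine followed, with differences between 0.38 (arginine) and 0.86 (leucine). In valine the difference of 0.61 arose with both genes lower with CSE, Vars2 more so than Vars.

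Phenylalanine was the exception. The log2 ratio of Farsa to Fars2 was 1.64, 1.68 and 1.69 in the CSE libraries, against 1.94, 2.26 and 1.96 in the control libraries, and so was lower with CSE, whereas the ratio of Farsb to Fars2 overlapped between the groups. With 3 libraries against 3, the exact 2-sided permutation test cannot give a p below 0.1. It gave 0.1 for 15 pairs and 0.2 for Farsb and Fars2 (0.107 and 0.2 after adjustment over the 16 pairs), so no pair could pass a threshold of 0.05. Pairs that share Eprs or Fars2 are not independent.

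**Figure D3:**
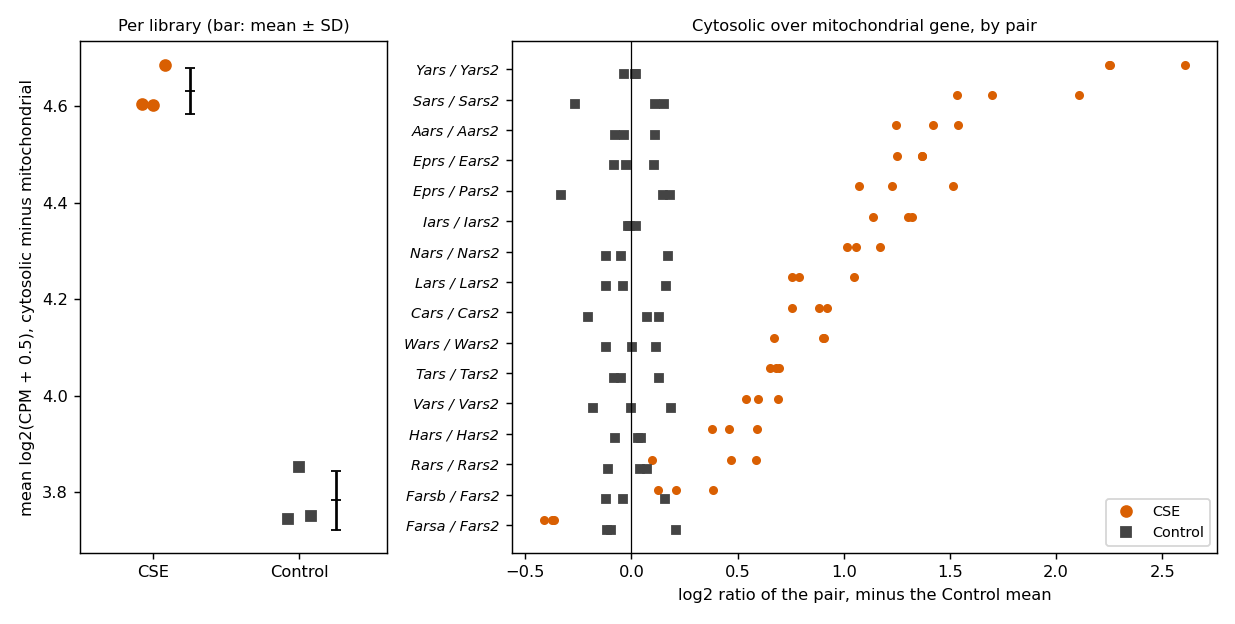
On the left, the mean log2(CPM + 0.5) of cytosolic minus mitochondrial synthetase genes in each library, with the mean ± SD of each group. On the right, the log2 ratio of each cytosolic gene to its mitochondrial counterpart in every library, less the mean of the control libraries for that pair. CSE libraries (orange circles) lie right of the control libraries (dark squares) in 14 pairs, overlap with them for Farsb and Fars2, and lie left of them for Farsa and Fars2.

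Genes that work with the synthetases changed in both directions. Of 37 partner genes, grouped by role, 19 were higher and 13 lower, with a median of 0.23. These shares, 51.4% and 35.1%, stand beside 36.3% and 37.5% of all tested genes, so the share of lower partners was near the background. At the CPM of the cytosolic synthetases 56.1% of genes were higher and 28.3% lower, and at that of the mitochondrial ones 29.6% and 45.5%. The partners lay in both ranges, with some outside them, and a difference from these shares was not tested. Of the scaffold proteins of the multisynthetase complex, Eef1e1 had 64.1, 66.3 and 59.7 CPM in the CSE libraries, against 45.0, 45.0 and 46.7 CPM in the control libraries, a log2 fold change of 0.47 ± 0.06. Aimp1 was at 0.37 ± 0.06 and also rose, and Aimp2 did not pass (edgeR adjusted p = 0.0786), although it passed with RLE factors (edgeR adjusted p = 0.043) and without control replicate 3 (0.0136). Of the factors that deliver charged tRNA to the ribosome, Eef1b2, Eef1d and Tufm lay at the CPM of the cytosolic synthetases, where 56.1% were higher. Eef1a1 and Eef1g lay above that range, and Tsfm in the mitochondrial one. In all, 5 of 6 of these delivery factors were higher. Among them Eef1g (log2 fold change 0.65 ± 0.05), Eef1a1 (0.58 ± 0.05), Eef1b2 (0.47 ± 0.05) and Eef1d (0.33 ± 0.05), all of the cytosolic elongation factor 1, rose. Their mitochondrial counterparts Tufm and Tsfm were at 0.21 ± 0.06 (edgeR adjusted p = 0.0074) and −0.16 ± 0.13 (edgeR adjusted p = 0.27), and the call of Tufm was lost with upper-quartile factors (edgeR adjusted p = 0.341), with total counts alone (0.802) and without control replicate 2 (0.0619). Tsfm was called lower with those scalings (edgeR adjusted p = 0.0498 and 0.0227). Eef1a1 belongs to a family with many processed copies, and its level is uncertain where reads were shared between copies.

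In tRNA maturation and export 5 of 6 genes rose and 1 fell, where 36.3% of all tested genes were higher and 37.5% lower. At the CPM of the cytosolic synthetases, where all but Elac2 and Trnt1 lay, 56.1% were higher and 28.3% lower. At that of the mitochondrial synthetases the shares were 29.6% and 45.5%. Xpot, the gene of the exporter that carries tRNA out of the nucleus, had 364 ± 8.45 CPM with CSE and 205 ± 5.84 CPM in the control (SD, n = 3 each), a log2 fold change of 0.83 ± 0.05 (SE, edgeR adjusted p = 2.4e-11). Rtcb, the tRNA ligase gene, and Trmt1, a tRNA methyltransferase gene, were at 0.44 ± 0.06 and 0.39 ± 0.06. Elac2, which trims the 3′ end of tRNA precursors, rose too (0.40 ± 0.08). Ssb, whose product La binds those precursors, was at 0.23 ± 0.06, and its call was lost with upper-quartile factors (edgeR adjusted p = 0.189) and total counts alone (0.577). Trnt1, which adds the CCA end to both cytosolic and mitochondrial tRNA, fell to 20.6 ± 0.869 CPM with CSE, against 28.7 ± 1.48 CPM in the control (SD, n = 3 each, log2 fold change −0.48 ± 0.07). Mitochondria lack a glutamine enzyme and instead amidate glutamate that Ears2 has loaded onto the glutamine tRNA. Of the amidotransferase subunits, Gatc fell (−0.83 ± 0.11), as did Gatb, counted under its older symbol Pet112l (−0.33 ± 0.13, edgeR adjusted p = 0.0307), while Qrsl1 did not pass. The call of Gatb was lost with DESeq2 (adjusted p = 0.0957) and without CSE replicate 1 or 2 or control replicate 2 or 3 (edgeR adjusted p between 0.0605 and 0.117). Mtfmt, which formylates the initiator methionine tRNA of mitochondria, fell as well (−0.63 ± 0.14).

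Genes of tRNA editing and quality control showed the deepest falls among the partners, with 5 of 6 lower and 0 higher, where 37.5% of all tested genes, and 45.5% of those at the CPM of the mitochondrial synthetases, were lower. The count of higher genes was also 0 at an unadjusted p under 0.05 in edgeR and with DESeq2 and limma-voom. The remaining gene, Dtd1 (0.25 ± 0.13), was called higher without CSE replicate 2 (edgeR adjusted p = 0.0257). Ptrh2, a peptidyl-tRNA hydrolase gene of mitochondria, had 8.63, 9.93 and 9.25 CPM in the CSE libraries, against 38.8, 36.3 and 38.0 CPM in the control libraries. Dtd2, which removes mischarged D-amino acids and alanine from tRNA, had 2.09, 1.75 and 0.93 CPM in the CSE libraries, against 6.3, 8.06 and 6.96 CPM in the control libraries. Prorsd1 had 0.854, 1.09 and 1.19 CPM in the CSE libraries, against 3.77, 4.32 and 4.99 CPM in the control libraries. All 3 were lower without overlap, by log2 fold changes of −2.03 ± 0.08 for Ptrh2, −2.15 ± 0.22 for Dtd2 and −2.07 ± 0.23 for Prorsd1, at an edgeR adjusted p of 3.7e-07 or less. Aarsd1, which has an alanyl-tRNA editing domain, was at −0.69 ± 0.07, and Ankrd16 fell as well (−0.74 ± 0.20). Outside the 36 members, Tarsl2, another threonine enzyme gene, was higher at 0.55 ± 0.17 (edgeR adjusted p = 0.007), a call that did not hold under total counts alone (edgeR adjusted p = 0.0624).

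**Figure D4:**
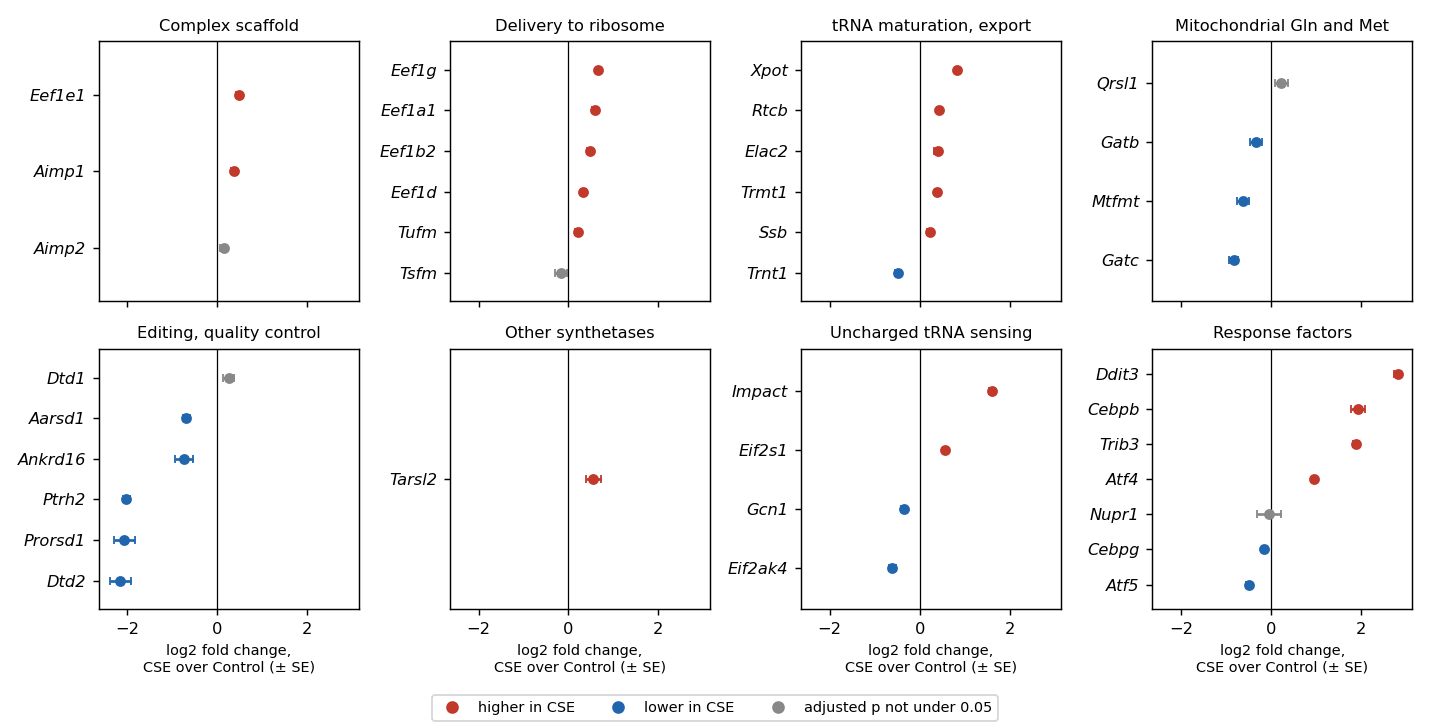
Log2 fold change of CSE over control with bars of ± 1 SE for genes that work with the synthetases, grouped by role. Red points passed the test as higher, blue as lower and grey did not pass. Delivery and tRNA maturation genes lie mostly right of 0, editing and quality control genes mostly left, and the response factors reach from −0.49 (Atf5) to 2.82 (Ddit3).

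The genes that sense uncharged tRNA were divided. Eif2ak4, the GCN2 gene, had 22.2, 20.3 and 18.9 CPM in the CSE libraries, against 32.7, 29.3 and 31.6 CPM in the control libraries, a log2 fold change of −0.61 ± 0.08 (SE, edgeR adjusted p = 1.9e-06). Its activator Gcn1, counted under its older symbol Gcn1l1, was lower too, at −0.35 ± 0.05. In contrast Impact, whose product restrains GCN2 by competing for GCN1, had 190.5, 210.2 and 212 CPM in the CSE libraries, against 69.4, 68.9 and 62.1 CPM in the control libraries, a log2 fold change of 1.61 ± 0.06 (SE, edgeR adjusted p = 1.1e-13). Eif2s1, the gene of the eIF2 subunit that is phosphorylated, rose as well (0.56 ± 0.05). Among the transcription factors of the amino acid response, Atf4 had 1045, 981 and 956 CPM in the CSE libraries, against 507, 497 and 519.8 CPM in the control libraries, a log2 fold change of 0.97 ± 0.05. Ddit3, which encodes the ATF4 partner CHOP, was at 2.82 ± 0.07, Cebpb at 1.94 ± 0.16 and Trib3, an inhibitor of ATF4, at 1.89 ± 0.06, and all 3 rose. Atf5 fell (−0.49 ± 0.05), while Nupr1 did not pass (−0.04 ± 0.27). Nupr1 had only 25 to 40 counts in a library, and its 95% interval ran from −0.57 to 0.49. Cebpg, at −0.15 ± 0.06, passed narrowly (edgeR adjusted p = 0.0342), with overlapping groups, and lost its call in several alternatives: RLE factors (edgeR adjusted p = 0.0656), DESeq2 (adjusted p = 0.0848), the replicate block (0.0571), and leaving out CSE replicate 1 or 3 or control replicate 1 (edgeR adjusted p between 0.116 and 0.144).

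Some members overlap other protein-coding genes in the RefSeq annotation of GRCr8. They are Aars, Mars, Yars, Mars2, Rars2 and Sars2. Whether these genes also overlapped in the annotation used for counting is not known. If so, without a stated strand setting part of their reads cannot be assigned with certainty. Mars overlaps Ddit3, which rose 7.05-fold, while Mars itself was lower with CSE.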

How the data were processed

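The submitters deposited 1 table of raw read counts per gene symbol, with 6 columns, 1 per library. HISAT2 2.0.4 and Rnor_6.0 are named, with no role, per the submitters' processing notes. The sources used here give no counting tool, annotation release or strand setting. Columns were assigned by their names, which match the sample titles. With edgeR 4.0.16 in R 4.3.3, filterByExpr kept 13390 of 21252 genes with any count. TMM factors averaged 0.937 in CSE and 1.07 in control libraries, and the quasi-likelihood test was 2-sided, with no replicate term. A floor of 3 counts corresponded to 0.142 to 0.177 CPM and covers counting error only. The standard error was the log2 fold change over the square root of F, and 95% intervals were taken from it on the normal scale. Alternatives used DESeq2 1.42.0, limma-voom (limma 3.58.1), other scalings, no filter, a replicate block, each library left out and, chosen after seeing the data, libraries thinned to the smallest total. The ranges of genes at like CPM were also added after seeing the data.

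The family described and the lists were chosen with earlier results of these data known, and the members within the family by symbol. Per-library values are given for the 8 cytosolic and 8 mitochondrial members with the largest called change and for members called against most of their class. Up to 4 genes per partner list were taken by smallest p, and further partner genes named were chosen after their values were seen. One further planned partner gene is not reported here and enters no count. Symbols were matched to RefSeq (GRCr8), and promoters were read from its table, the first entry where a gene had several. No per-length level could be computed, so levels are compared between groups and not between genes. A planned comparison of protein sequences was not run, since no protein sequences were used here. The fit was checked on simulated counts. Replicates differed by more than sampling noise: the chi-square per degree of freedom was at least 3.24 within groups.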

Additional observations from a re-analysis of the deposited data

How the results depend on the processing

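The counts of synthetases changed little: over all alternatives between 11 and 14 cytosolic genes were higher and 5 or 6 lower, 0 mitochondrial genes were higher and 11 or 12 lower, and between 9432 and 10684 genes were called in all. The total of genes called was lowest with DESeq2 and highest with no filter. Other scalings shift every gene alike and moved the directions of calls. The median of all tested genes was −0.15 with upper-quartile factors and −0.21 with total counts alone, and −0.02 as reported, and the share of higher calls among all calls fell accordingly (4045 of 10035 and 3749 of 10068, against 4867 of 9894). The cytosolic median was 0.21 and 0.16 under these scalings and the mitochondrial median −0.79 and −0.84. Signs turned for genes near 0 that did not pass: under total counts alone Fars2 was at −0.046, Hars2 at −0.065, Rars2 at −0.18 and Aimp2 at −0.049, and under upper-quartile factors Hars2 was at −0.013 and Rars2 at −0.12. Leaving out 1 library gave ranges from −0.049 to 0.012 for Gars, −0.13 to 0.10 for Rars2, −0.16 to 0.14 for Nupr1, 0.32 to 0.37 for the cytosolic median and −0.72 to −0.58 for the mitochondrial median. The difference in cytosolic minus mitochondrial mean log2 level was 0.75 with a pseudocount of 2 CPM and 0.89 with 0.1 CPM. An E-box stood in 0 mitochondrial promoters when only the 250 bases before the start were searched. The cause of these moves was not tested beyond the shift in scaling. Deviations from the group mean were nearly uncorrelated between same-numbered libraries (0.00463, −0.0252 and −0.0168). Between libraries of unlike number the correlations ran from −0.079 to 0.101. No pairing by number was thus seen, but 3 libraries per group cannot show how the libraries were made. With the replicate block 9756 genes were called, no synthetase call changed, and Cebpg lost its call (edgeR adjusted p = 0.0571). Low counts limit the values of Mars2, Ears2 and Yars2, and of Dtd2, Prorsd1 and Nupr1 among the partners. The planned comparison of protein sequences was not run.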
